A study of Mus musculus with 6 samples.

Results

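The small proline-rich (Sprr) genes were examined in the colonic mucosa of mice lacking Tlr2 and of wild-type mice, both of strain C57BL/6 and aged 90 postnatal days. They were taken as all genes whose symbol begins with Sprr and a digit, matched by the accession of each array probe. Of the 17 Sprr genes and pseudogenes in the RefSeq gene table, 12 had a probe, 13 probes in all among the 41174 probes of the array, and 8 passed the filter on dim signals among 14701 named genes tested. Sprr1a, Sprr2a, Sprr2e, Sprr2h and Sprr2k were chosen on their knockout over wild-type ratios on these arrays, so every ratio of the family is given as a description with no test. The 4 sample pairs, numbered 1, 2, 4 and 5 after the knockout sample, were measured on 4 dual-colour arrays, each holding 1 knockout and 1 wild-type RNA. The knockout carried Cy3 in pairs 1 and 2 and Cy5 in pairs 4 and 5. Tlr2 encodes a cell-surface receptor for bacterial lipoproteins. The mucosa was sheared off with a microscope slide and frozen, per the labels. The labels describe both groups only by genotype, strain, age and tissue, and do not say how the allele was made, whether the mice were littermates or whether each sample code is a separate animal, so the spread between pairs may be partly technical.

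Sprr proteins are short, proline-rich substrates of transglutaminases. In stratified squamous epithelia these enzymes cross-link them, together with loricrin and involucrin, into the cornified envelope beneath the plasma membrane. The genes lie side by side in the epidermal differentiation complex on mouse chromosome 3. In the gut, Sprr2a is known as an epithelial gene induced by colonising bacteria whose product has antibacterial activity, and Sprr1a is known as a gene induced by injury and stress.

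In the gene table, whose assembly is GRCm38.p6, the family ran in the order Sprr2a1, Sprr2a2, Sprr2a3, Sprr2b, Sprr2c-ps, Sprr2d, Sprr2e, Sprr2f, Sprr2g, Sprr2h, Sprr2i, Sprr2j-ps, Sprr2k, Sprr1b, Sprr3, Sprr1a and Sprr4. The nearest protein-coding neighbours on the array were Prr9 and Lor, the loricrin gene, on the Sprr2a1 side and Ivl, the involucrin gene, and Smcp on the Sprr4 side. Sprr2g is annotated there as a transcribed pseudogene. Sprr2a2, Sprr2a3, Sprr2c-ps, Sprr2i and Sprr2j-ps had no matched probe. The probes called Sprr2a here carry the accession of Sprr2a1, and the files do not tell whether they also bind transcripts of Sprr2a2 and Sprr2a3. The probe letters were not used here, so signal shared between these near copies was not tested.

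The promoters of the family are shown first, because the genes the values below turn on include close pairs by promoter sequence. Promoter sequences of 14 of the 17 genes were in the RefSeq table for GRCm38.p6, and the 250 bases before the start site are printed 5′ to 3′ on the gene's strand. Capitals mark 3 motifs, each searched on both strands: the TATA box TATAAA, the AP-1 site TGACTCA and the octamer ATGCAAAT. The first 2 lines are Sprr2d (chr3:92338890-92339139, plus strand) and Sprr2e (chr3:92351893-92352142, plus strand), the next 2 are Sprr2h (chr3:92385435-92385684, plus strand) and Sprr2k (chr3:92432332-92432581, plus strand), and the last 2 are Sprr2a1 (chr3:92215585-92215834, plus strand) and Sprr1a (chr3:92485882-92486131, minus strand).
Sprr2d: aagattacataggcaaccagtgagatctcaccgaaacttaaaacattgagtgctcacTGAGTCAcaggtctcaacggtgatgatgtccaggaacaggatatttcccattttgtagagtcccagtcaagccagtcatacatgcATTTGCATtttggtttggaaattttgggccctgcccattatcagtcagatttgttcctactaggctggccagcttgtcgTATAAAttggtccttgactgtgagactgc
Sprr2e: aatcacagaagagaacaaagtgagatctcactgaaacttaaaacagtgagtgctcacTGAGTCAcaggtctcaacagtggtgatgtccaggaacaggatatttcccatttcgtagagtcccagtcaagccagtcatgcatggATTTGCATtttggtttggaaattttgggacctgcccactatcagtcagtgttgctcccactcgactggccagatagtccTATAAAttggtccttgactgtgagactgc
Sprr2h: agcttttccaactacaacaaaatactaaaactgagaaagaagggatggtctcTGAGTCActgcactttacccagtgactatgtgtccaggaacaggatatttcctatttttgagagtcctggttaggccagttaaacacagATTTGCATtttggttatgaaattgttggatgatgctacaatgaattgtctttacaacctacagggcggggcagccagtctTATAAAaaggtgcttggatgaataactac
Sprr2k: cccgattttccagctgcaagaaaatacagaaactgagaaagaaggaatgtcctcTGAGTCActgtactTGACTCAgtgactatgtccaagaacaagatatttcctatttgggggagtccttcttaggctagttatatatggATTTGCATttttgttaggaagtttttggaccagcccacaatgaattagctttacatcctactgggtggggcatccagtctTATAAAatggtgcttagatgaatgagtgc
Sprr2a1: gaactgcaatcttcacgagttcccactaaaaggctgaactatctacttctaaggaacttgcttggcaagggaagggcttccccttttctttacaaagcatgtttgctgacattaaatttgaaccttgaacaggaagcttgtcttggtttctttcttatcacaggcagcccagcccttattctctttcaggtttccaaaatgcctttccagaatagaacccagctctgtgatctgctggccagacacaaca
Sprr1a: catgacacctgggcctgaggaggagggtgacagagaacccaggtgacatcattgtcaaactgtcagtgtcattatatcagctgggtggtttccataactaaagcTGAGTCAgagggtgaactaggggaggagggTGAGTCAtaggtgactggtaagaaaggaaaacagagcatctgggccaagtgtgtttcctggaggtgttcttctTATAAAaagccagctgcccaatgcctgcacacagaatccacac

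The Sprr2d and Sprr2e promoters were identical at 88.9% of aligned positions, and those of Sprr2h and Sprr2k at 80.6%. Sprr2e and Sprr2k were 65.3% identical, and Sprr2e and Sprr2h 63.6%. The promoters of Sprr2a1 and Sprr2a2 did not differ over these bases (100%), and Sprr2a1 was 47.4% identical to Sprr2e. Sprr1a was 46.2% identical to Sprr2e. Values of this order also occurred between other members, such as 44.6% for Sprr1b with Sprr3 and 44.4% for Sprr2e with Sprr4. The identity that unrelated sequences reach under this alignment was not tested.

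**Figure D1:**
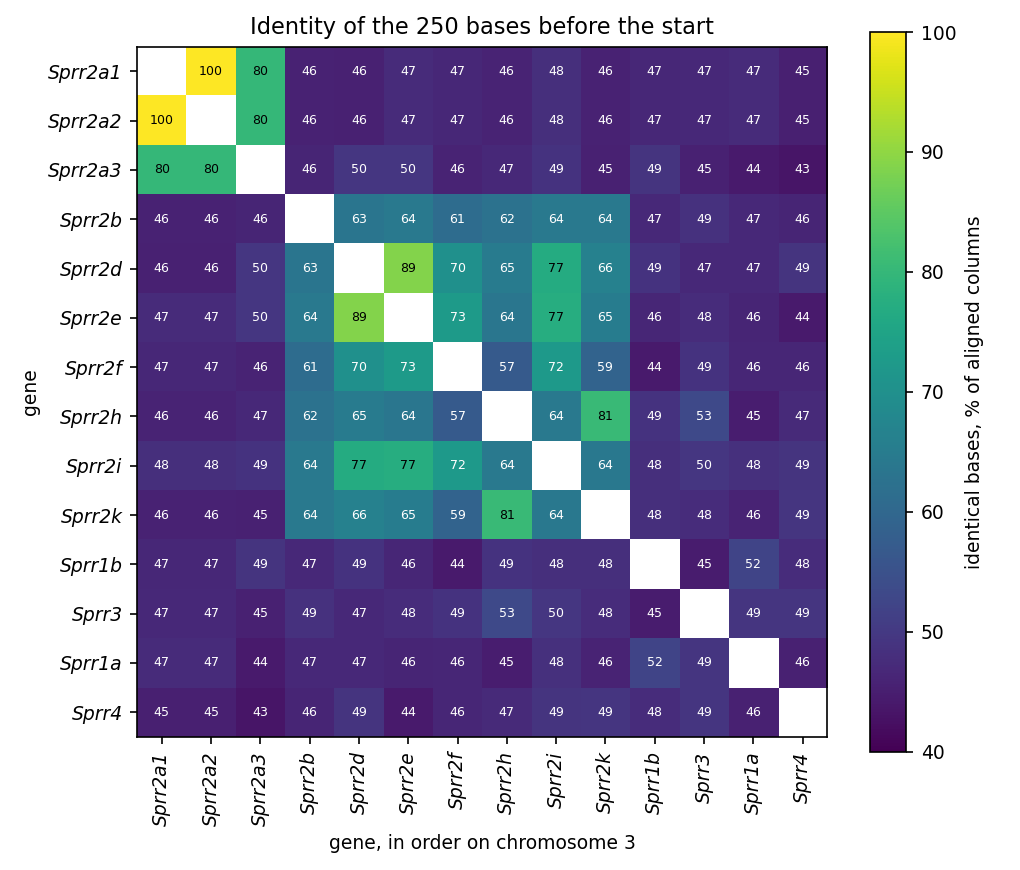
Identity of the 250 bases before the start between each pair of the 14 Sprr genes with a promoter sequence, as the percentage of aligned columns with the same base, with genes in chromosome order on both axes. Sprr2d with Sprr2e (88.9%) and Sprr2h with Sprr2k (80.6%) form the 2 closest pairs outside the Sprr2a copies.

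The TATA box was present in 10 of 14 Sprr promoters and in 12.4% of all 32851 promoters of the table over the same 250 bases. In Sprr2b, Sprr2d, Sprr2e, Sprr2f, Sprr2h, Sprr2i and Sprr2k it lay at the same place, 29 to 24 bases before the start. The AP-1 site, bound by Fos and Jun family dimers, was present in 8 of 14 promoters against 4.46% of all, and the octamer, bound by POU factors, in 7 of 14 against 1.6%. These 7 were the same Sprr2 genes, with the octamer starting 108 to 112 bases before the start on the opposite strand. Sprr2k held a second AP-1 site on the forward strand, and Sprr1a held 2 on the opposite strand. Of the other motifs searched on both strands, the ETS-like AGGAAG was in 7 promoters (29.5% of all), the KLF-like CCACCC in 5 (28.1%), the STAT-like TTCNNNGAA in 1 (7.02%) and an interferon-response (ISRE-like) motif in 0 (2.98%). No matched motifs overlapped each other. A match describes letters in this window and shows no binding.

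Between 63.3% and 76.5% of the 43379 spots of an array passed the scanner software's mark for signal clearly over background for wild-type RNA and 67.7% to 71.9% for knockout RNA. The log2 ratio (knockout over wild type) of Tlr2 itself was -4.42, -5.31, -5.50 and -4.20 in pairs 1, 2, 4 and 5, in the direction of the labels on every array. Pair 1 stood apart: over 14690 genes, which are not independent replicates, its ratios correlated at Pearson's r of -0.21, -0.42 and -0.10 with pairs 2, 4 and 5, whereas pairs 2, 4 and 5 correlated at 0.42 to 0.57 with each other. Hox genes of paralog groups 10 to 13, which mark the posterior body axis, had a median log2 ratio of -1.48 in pair 1 and of 0.50, 1.21 and 0.50 in pairs 2, 4 and 5. Groups 1 to 9 ran the other way in 3 of 4 pairs, at 0.56, -0.23 and -0.76 in pairs 1, 2 and 4, and were at 0.06 in pair 5, so these genes moved with the pair, and their part in the values below was not tested. All 20 colonic epithelium markers on the array, among them Epcam and Cdx2, were well above background in all 8 channels, and their median log2 ratio was 0.57 and 0.47 in pairs 1 and 2 and -0.46 and -0.41 in pairs 4 and 5. Of these 20 markers 14 had a saturated channel, and over the 6 never saturated the medians were -0.36, 0.54, 0.27 and 0.06 in pairs 1, 2, 4 and 5.

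The probes of the family ranged from scanner saturation to background. Sprr2a, Sprr2b, Sprr2e, Sprr2g, Sprr2k and Sprr1a were well above background in all 8 channels. Sprr2d and Sprr2h were above it in 5 of 8 channels and Sprr4 in 1. Sprr2f, Sprr1b and Sprr3, the last an esophageal member of the family, were not well above background in any channel. Each Sprr probe had 1 spot per array. Probes differ in their binding, so the signal of one gene is not set against that of another here.

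**Figure D2:**
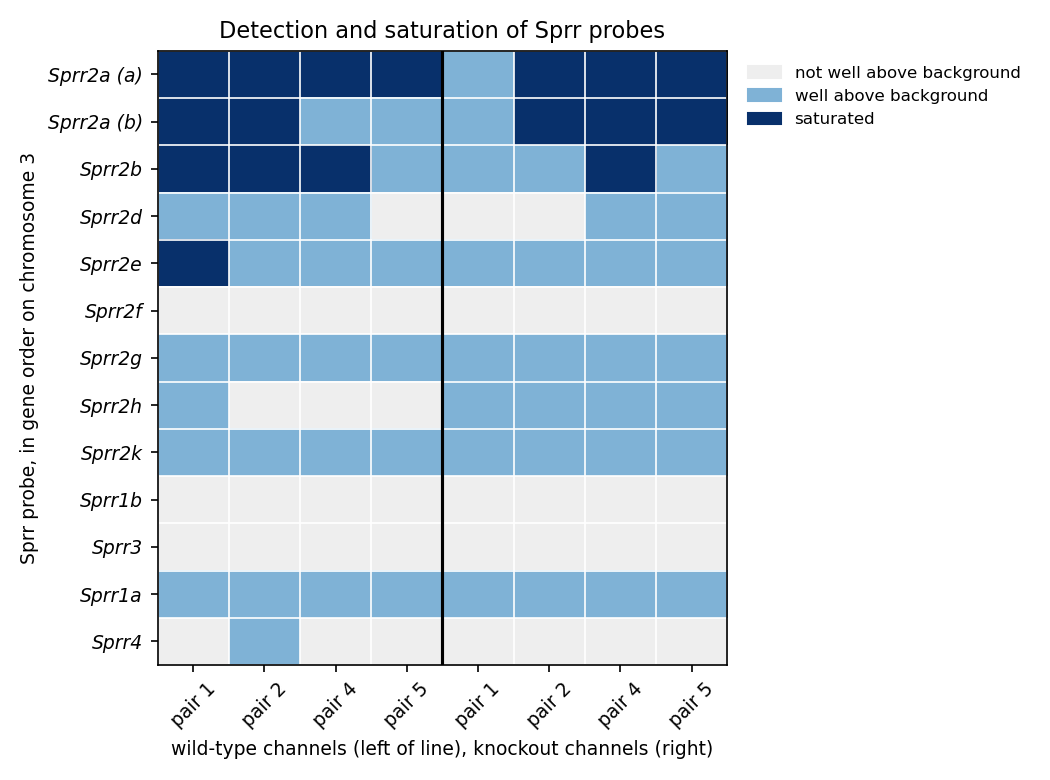
Detection mark of each of the 13 Sprr probes (rows, in gene order on chromosome 3) in the 4 wild-type and 4 knockout channels (columns, by pair), as not well above background, well above background or saturated. Sprr2a and Sprr2b hold most of the saturated channels, Sprr2f, Sprr1b and Sprr3 are in no channel above background, and Sprr2h is above background in 4 knockout channels and 1 wild-type channel.

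Among the 8 measured genes, Sprr2e, Sprr2g and Sprr2k were below wild type in all 4 pairs, and Sprr2h was above it in all 4. Sprr2b also had 4 negative ratios, but in pair 4 both its channels were saturated and that ratio gives no direction. Across all genes tested, 8.42% were lower and 7.19% higher in all 4 pairs. The rule of the study's design text asks for over 1.6-fold in at least 2 pairs with no pair contradicting. By it, Sprr2e and Sprr2k passed as lower (0.714% of all genes, 105 genes) and Sprr2h as higher (0.762%, 112 genes). Sprr2h had passed the filter on dim signals only through its knockout channels, so its count as higher is partly set by that filter. The median log2 ratio was -0.22 over the 8 genes and -0.0084 over all genes tested. The median of the 8 falls between Sprr2b at -0.42 and Sprr2a at -0.03, both limited by saturation, so it gives no size for the family. Since the family was proposed for these ratios, the counts describe it and support nothing. Without pair 1 the same rule passed 388 genes as higher and 495 as lower, with each array centred on its median in place of loess 45 and 293, and with the scanner software's processed signals 293 (1.99%) and 269 (1.83%). limma, which tests each gene on the 4 ratios with a dye term, called 0 of 14701 genes (0%) at a Benjamini-Hochberg adjusted p under 0.05, while 1193 had an unadjusted p under 0.05. Even Tlr2, at a mean log2 ratio of -4.86, was not called, with a limma adjusted p of 0.314. A limma count of 0, here or for the lists below, therefore does not show that genes were unchanged.

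Sprr2e encodes an Sprr2 cornified envelope precursor. Levels are given as log2 after normalisation between arrays, with 0 at the channel's median over the probes kept. In wild type Sprr2e was at 7.13, 7.05, 7.77 and 7.04 in pairs 1, 2, 4 and 5, and in knockout at 6.49, 6.25, 7.01 and 7.02. The 4 knockout levels lay below the 4 wild-type levels with no overlap, which held for 2.83% of all genes tested, but the highest knockout and the lowest wild-type level, both of pair 5, were close together. The log2 ratio of knockout over wild type was -0.59, -0.82, -0.74 and -0.02, with a mean of -0.54 ± 0.362 (SD, n = 4), a 1.46-fold difference. The wild-type spot of pair 1 was saturated, and without that pair the mean was -0.53 ± 0.442 (SD, n = 3). Sprr2e no longer passed the rule without pair 2, without pair 4 or with no background correction. In these mucosa samples, fewer cells of a type and less RNA per cell cannot be told apart.

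Sprr2k, a related Sprr2 gene next to Sprr1b, had no saturated channel. Its level was 7.06, 6.49, 7.52 and 6.64 in wild type and 5.99, 5.64, 6.25 and 6.34 in knockout, for pairs 1, 2, 4 and 5. Again no knockout level reached the lowest wild-type level, and pair 5 showed the smallest difference. The log2 ratio was -1.03, -0.87, -1.25 and -0.29, with a mean of -0.86 ± 0.41 (SD, n = 4), a 1.82-fold difference, and without pair 1 it was -0.81 ± 0.483 (SD, n = 3). Sprr2k passed the rule in the main setting and in each of the alternatives run, leaving out any 1 pair included.

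Sprr2g, the transcribed pseudogene between Sprr2f and Sprr2h, was lower in knockout within each pair. Wild type was at 0.29, -0.32, 0.26 and -0.35 and knockout at -0.30, -0.77, -0.40 and -0.50 in pairs 1, 2, 4 and 5. The genotypes overlapped in range, because wild type of pairs 2 and 5 lay among the knockout levels, although each knockout was below its own pair's wild type. The log2 ratio was -0.54, -0.48, -0.64 and -0.15, with a mean of -0.45 ± 0.214 (SD, n = 4). With no pair past 1.6-fold, Sprr2g fell outside the design text's rule, and with processed signals, at a mean of -0.69 ± 0.189, it passed.

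Sprr2b, the Sprr2 gene beside the Sprr2a copies, was saturated in 3 wild-type and 1 knockout channels. Its log2 ratio was -0.06, -0.57, -0.87 and -0.16 in pairs 1, 2, 4 and 5, with a mean of -0.42 ± 0.374 (SD, n = 4). In pair 4 both channels were saturated and the ratio carries no direction. Pair 5, the only one without a saturated channel, was at -0.16. In pairs 1 and 2 only the wild-type channel was saturated, so its level there is a lower bound. With processed signals and with median centring Sprr2b passed the design text's rule as lower, saturated pairs included. It did not pass when the processed ratios were left uncentred.

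Sprr2a had no pair without saturation on either of its 2 probes. The first probe was at 0.87 and 0.47 in pairs 1 and 2 and at -0.87 and -0.61 in pairs 4 and 5, and the second at 0.90, 0.47, -0.56 and -0.51. The sign thus followed the dye of the knockout, positive with Cy3 and negative with Cy5, and the Cy5 channel was saturated in every pair on both probes. The means of -0.03 ± 0.836 and 0.07 ± 0.727 (SD, n = 4) carry no size, and the files allow no statement on Sprr2a between the genotypes.

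Sprr2h differed in direction from Sprr2g beside it and from Sprr2e and Sprr2k further along, while Sprr2f and Sprr2i gave no usable ratio. The Sprr2h probe was well above background in all 4 knockout channels and in 1 of 4 wild-type channels, that of pair 1. The processed signal, which the scanner software corrects for background, was 393, 73.7, 199 and 358 in knockout and 65.3, 5.16, 13.9 and 45.1 in wild type, for pairs 1, 2, 4 and 5. The lowest knockout signal, that of pair 2, was close to the wild-type signal of pair 1, and these signals were not scaled between arrays. In pair 1, measured in both channels, the knockout signal was 6.02-fold the wild type. In the other 3 pairs the wild-type spot lacked the detection mark, and a stand-in was used for its signal. The stand-in was the higher of its own processed signal and the lowest one with the mark on that channel. Over this stand-in the knockout was 3.61-fold, 4.14-fold and 6.99-fold in pairs 2, 4 and 5. The lowest marked signal is the most lenient choice, so these values are not lower limits. Before background correction the median signals were 130, 73, 126.5 and 178 in knockout and 96, 73.5, 60 and 64 in wild type, for pairs 1, 2, 4 and 5. These come from different dyes and are not on one scale. In pair 2 the Sprr2f probe, not well above background in either channel, read 61 in knockout and 74 in wild type.

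The size of the Sprr2h difference was not the same in the main setting and in the processed signals, which differ in background handling, offset and normalisation together. With the main setting, which adds 50 to every signal and so narrows the ratios of dim probes, the log2 ratio was 0.96, 0.32, 0.79 and 0.53, with a mean of 0.65 ± 0.283 (SD, n = 4), a 1.57-fold difference. With no background correction the mean was 0.78. With processed signals it was 3.33 ± 0.662, a 10.03-fold difference that includes the 3 wild-type signals below detection. On the main scale the levels overlapped, at -1.75, -1.91, -1.85 and -1.41 in wild type and -0.84, -1.57, -1.08 and -0.88 in knockout, since wild type of pair 5 lay above knockout of pair 2. Without pair 1 or without pair 4, Sprr2h no longer passed the rule, with a mean of 0.54 ± 0.236 without pair 1.

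Sprr1a, the member known from injured tissue, varied more between the pairs than between the genotypes. Wild type was at 1.91, 0.35, 1.60 and 2.42 and knockout at 2.25, 1.35, 1.53 and 2.90 in pairs 1, 2, 4 and 5, a range of 2.07 log2 units in wild type and 1.55 in knockout. Pair 2 was lowest and pair 5 highest in both genotypes. The log2 ratio was 0.38, 0.98, -0.05 and 0.48, with a mean of 0.45 ± 0.423 (SD, n = 4). With processed signals it was positive in all 4 pairs, at a mean of 0.57 ± 0.464, and Sprr1a then passed the design text's rule as higher, though not when those ratios were left uncentred. Without pair 2 the mean in the main setting was 0.27.

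Sprr2d, whose promoter was closest to that of Sprr2e, was above background in 3 wild-type and 2 knockout channels. Its log2 ratio was -0.25, 0.05, 0.17 and 0.01, with a mean of -0.0046 ± 0.178 (SD, n = 4). With processed signals the ratio was -1.91, -0.81, 0.50 and 0.87 in pairs 1, 2, 4 and 5, and the groups overlapped under both settings. The sign of the processed ratio thus followed the dye of the knockout, negative with Cy3 and positive with Cy5. The Cy5 spot had the detection mark in every pair. The 4 remaining members, Sprr2f, Sprr1b, Sprr3 and Sprr4, gave no usable ratio.

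**Figure D3:**
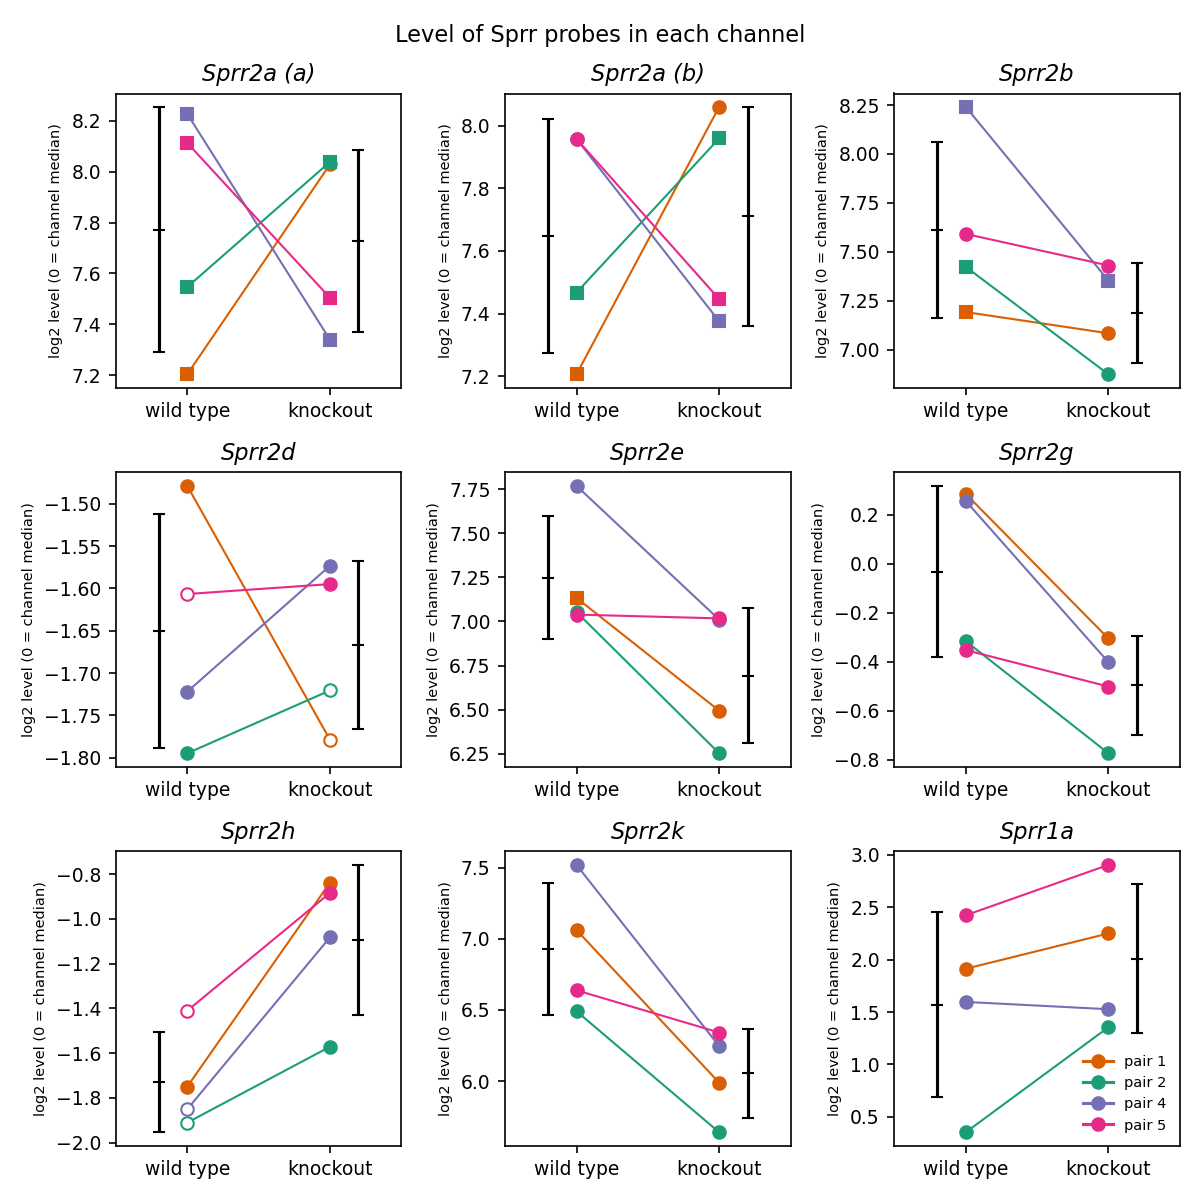
Log2 level (0 at the channel median) of the 9 probes of the 8 measured Sprr genes in wild type and knockout, with a line joining the channels of a pair, squares for saturated spots, open circles for spots not well above background and bars for the mean and SD over 4 samples; y axes differ between panels, and the probes of Sprr2a are marked a and b. Sprr2e and Sprr2k show no overlap between genotypes, the lines of Sprr2a cross, and those of Sprr1a rise in 3 of 4 pairs from very different starting levels.

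The levels of Sprr2b, Sprr2e, Sprr2g and Sprr2k were also compared over the samples. Over the 8 channels (4 wild-type and 4 knockout, sharing 4 arrays and the genotype difference), the Pearson correlation of levels was 0.94 between Sprr2e and Sprr2k, 0.92 between Sprr2b and Sprr2e, 0.90 between Sprr2g and Sprr2k, 0.82 between Sprr2b and Sprr2k, 0.76 between Sprr2e and Sprr2g and 0.57 between Sprr2b and Sprr2g. Sprr1a stood at -0.0307 to 0.0932 with each of the other 5 members measured in all channels. Values with Sprr2b include its 4 saturated channels, and those with Sprr2e its 1. The 0.0932 of Sprr1a is its value with Sprr2a, which was saturated in 7 of 8 channels. Wild type of pair 4 had the highest level of Sprr2e and Sprr2k among the channels not saturated. Whether the probes share signal of near-identical transcripts was not tested.

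**Figure D4:**
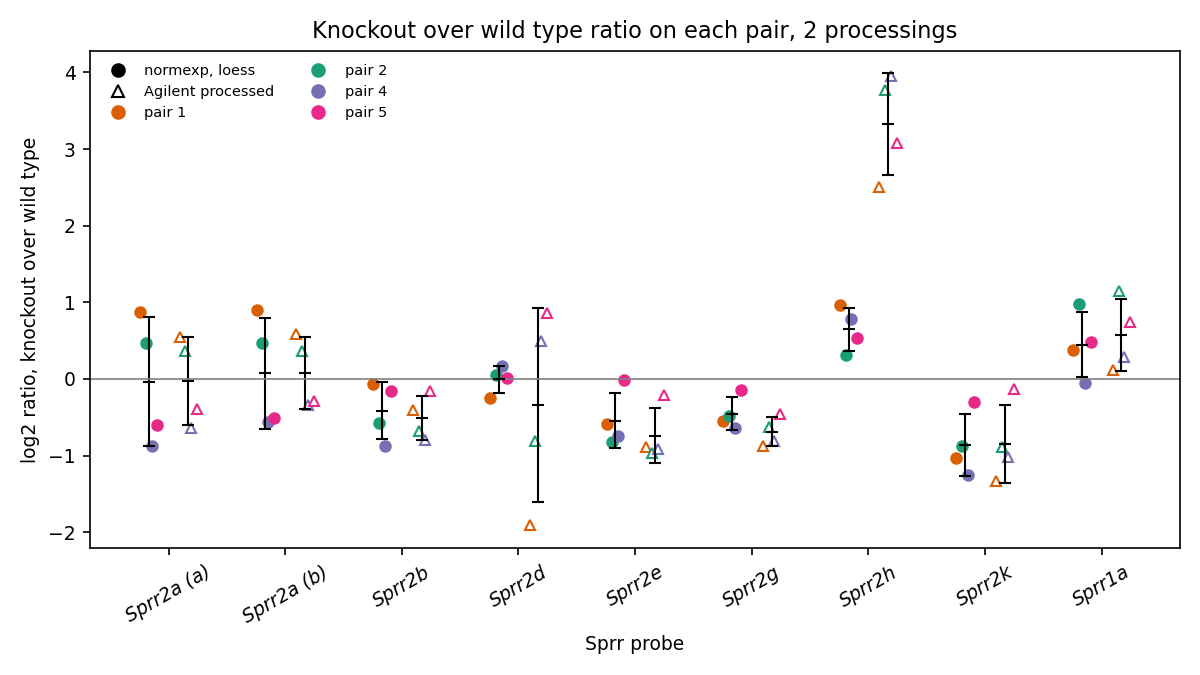
Log2 ratio of knockout over wild type of the 9 Sprr probes in each of 4 pairs, with filled circles for normexp and loess and open triangles for Agilent processed signals centred on the array median; bars give mean and SD over 4 pairs. Sprr2e, Sprr2g and Sprr2k lie below 0 in all pairs under both settings, as do the plotted values of Sprr2b, whose pair 4 is saturated in both channels, and the Sprr2h mean is 0.65 under the first and 3.33 under the second.

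Among 12750 other genes measured in all 8 channels, the levels most like those of Sprr2k were those of Fcho1 (Pearson's r of 0.955), Mmadhc (0.95) and Olfr544 (0.946). For Sprr2e, with 1 saturated channel, they were Ptgdr2 (0.977), Paqr6 (0.969) and Cyp4a12a (0.958). For Sprr2b, with 4 saturated channels, they were Glyctk (0.969), Tekt4 (0.964) and Sost (0.961), and for Sprr2g P4ha1 (0.985), Olfr59 (0.946) and Brinp2 (0.945). For Sprr1a they included Elmo1 (0.978) and Srxn1, an enzyme that restores oxidised peroxiredoxins (0.968). The genes most like Sprr2a, namely Fabp2, Slc25a5 and Mdh2 at 0.989 to 0.997, were each saturated in 7 of 8 channels, as was the Sprr2a probe. With 8 points and this many genes, such values describe the search and nothing more.

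The authors' deposited table of decreased transcripts holds Sprr2e, Sprr2g and Sprr2k, with average ratios (knockout to wild type) of 0.603, 0.617 and 0.574. The authors' deposited table of increased transcripts holds Sprr2h at an average of 3.10, from 5.18, 1.03, 2.45 and 3.72 on its 4 arrays. For Sprr2e, Sprr2g and Sprr2k all 4 ratios of the authors' deposited table equalled the ratio of processed signals, uncentred, within 1%, taking the table's arrays 1 to 4 as pairs 1, 2, 4 and 5. For Sprr2h 0 of 4 did, and how the Sprr2h ratios of the authors' deposited table were made is not stated by the labels or headers.

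Across 10 lists of other genes, 201 genes were measured, of which limma called 0 after adjustment over all genes tested and 19 had an unadjusted p under 0.05, against 8.12% of all genes tested. The design text's rule passed 4 as higher and 4 as lower, against 0.762% and 0.714% of all genes, and the counts per list below are read beside these shares. Other genes of the epidermal differentiation complex were examined, not only those nearest to the Sprr genes. Of 35 on the array, 10 were not above background in any channel, among them Ivl, and 16 were above it in all 8. The median log2 ratio over the 20 measured was -0.05, the rule passed 0 in either direction, and limma called 0, with 1 at an unadjusted p under 0.05. Lor was at -0.04 ± 0.396 and S100a3 at -0.14 ± 0.107 (log2, SD, n = 4).

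Partners and cross-linkers of the cornified envelope had a median log2 ratio of 0.06 over 20 measured genes. Dsp, the desmosomal linker desmoplakin, was at 0.60 ± 0.565 and passed the rule as higher, as the 1 gene of the list to do so, Pkp3, a desmosomal plakophilin, was at 0.25 ± 0.164, and Dmkn, or dermokine, at -0.15 ± 0.081 (SD, n = 4). limma called 0 of the 20, and 0 had an unadjusted p under 0.05.

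Markers of stratified squamous epithelium, the usual site of Sprr expression, were given as a check on other tissue in the samples. Of 27 on the array, 15 were above background in all 8 channels, among them Krt5, Krt14 and Krt13, and 3 (Dsg1a, Calml3 and Klk5) in none. Trp63, the master regulator of basal cells, was above background in 1 wild-type and 0 knockout channels, and Krt4, an esophageal keratin, in 3 and 0. The summed level of the list, as multiples of the channel median, ranged from 160.5 to 220.1 in wild type and from 172.9 to 225.8 in knockout. Of the 20 measured genes 1 had a saturated channel, and a bright probe weighs heavily in such a sum, so the sum is limited by saturation. The median log2 ratio was -0.04 over 20 measured genes, with 0 called by limma, 1 at an unadjusted p under 0.05 and 0 past the rule. Mean ratios were above 0 for 7 of the 20 and below 0 for 13. Of those with one sign in all 4 pairs, Krt13 was at -0.50 ± 0.297, Serpinb5 at -0.33 ± 0.277 and Klk7 at -0.07 ± 0.0465 (log2, SD, n = 4). Their part in the Sprr values was not tested.

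Factors reported at Sprr promoters and in squamous differentiation had a median log2 ratio of 0.13 over 30 measured genes, against -0.0084 over all genes. It was 0.24 without pair 1, 0.06 without pair 2, 0.05 without pair 4, 0.07 without pair 5 and 0.03 with median centring. Ovol1, a zinc finger factor of epithelial differentiation, was at 0.56 ± 0.429, and Junb and Jund, AP-1 subunits, at 0.44 ± 0.196 and 0.26 ± 0.198 (SD, n = 4). limma called 0 of the 30, 4 had an unadjusted p under 0.05 and 0 passed the rule. Genes of epithelial stress and repair had a median of 0.06 over 21 genes, with 2 past the rule as higher (0.762% of all genes) and 1 as lower (0.714%), 0 called by limma and 6 at an unadjusted p under 0.05 (8.12%). Duoxa2, needed for the dual oxidase Duox2 to reach the cell surface, was at 1.16 ± 0.79, F3, the tissue factor of coagulation, at 0.49 ± 0.422, Krt7, a simple-epithelium keratin, at -0.54 ± 0.293 and Msln, or mesothelin, at -0.48 ± 0.278 (SD, n = 4).

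Cytokine and microbial signals to the epithelium had a median log2 ratio of -0.0011 over 17 measured genes, with 1 past the rule as higher (0.762% of all genes), 2 as lower (0.714%), 0 called by limma and 3 at an unadjusted p under 0.05 (8.12%). Retnlb, a goblet cell protein, was at 2.15 ± 0.90, the antimicrobial lectins Reg3g and Reg3b at -1.96 ± 1.67 and -1.85 ± 1.58, and Il13, a type 2 cytokine, at -0.14 ± 0.09 (SD, n = 4).

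Among the remaining marker lists, Epcam was at 0.12 ± 0.11 (log2, SD, n = 4). Apoa1, an apolipoprotein of small intestinal absorptive cells, was at -1.59 ± 1.28 and passed the rule as lower, and Apoa4 was at -0.31 ± 0.285. Of the 14 small intestinal markers measured, 5 had a mean ratio above 0 and 9 below. The summed level of small intestinal markers ranged from 202.9 to 367.4 in wild type and from 210.3 to 321.1 in knockout, with a median log2 ratio of -0.06 over 14 genes. That sum includes Fabp2, saturated in 7 of 8 channels, so saturation limits what it tells of small intestinal content. Smooth muscle, stromal and immune markers ranged from 65.4 to 119.8 and from 62.5 to 98.8, with a median of -0.06 over 18 genes, and none of these had the same sign in all 4 pairs. The Hox genes Hoxa2 and Hoxa4 were at 0.35 ± 0.203 and 0.11 ± 0.0814. For the 4 lists of colonic, small intestinal, stromal and Hox genes limma called 0 genes, with 0, 1, 1 and 2 at an unadjusted p under 0.05.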

How the data were processed

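RNA of colonic mucosa sheared by a microscope slide was hybridised in 4 knockout and wild-type pairs to Agilent 4x44k arrays, per the labels' protocols. Groups, pair numbers and dyes came from the labels. The methylation arrays were not used here, as no annotation of their build was at hand to tie them to Sprr genes.

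The deposited scanner files hold spot intensity per channel from Agilent Feature Extraction, which per the file headers was 10.5.1.1 (the submitters' processing notes name 8.5.1.1). Hit tables deposited by the authors list, for each array, the linear knockout to wild-type ratio. Marks for detection, saturation and outliers were used as deposited.

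Median signals were background corrected with limma's normexp (offset 50) and then loess-normalised within arrays (limma 3.58.1, R 4.3.3), with controls at weight 0. Outlier spots were left out and saturated ones kept. Ratios are log2 of knockout over wild type, computed here from the deposited intensity. A probe was kept if, for either genotype, at least 2 arrays marked it well above background, and a gene took its brightest probe. Of 41174 probes, 25114 had a symbol, 17 of them only from the authors' tables. Channel levels were scaled with Aquantile. limma used a dye effect as intercept, with Benjamini-Hochberg adjustment at 0.05. The procedure was tested on simulated data. Precision is limited by the number of arrays.

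Named genes are all Sprr genes, Tlr2, the nearest neighbours of the cluster, up to 4 genes per list with the largest mean ratio of one sign in all 4 pairs, and the 3 genes most like each member measured in all 8 channels, of which 1 gene is not reported here. A few list genes named for their detection were picked after seeing their values. The members and lists were chosen with earlier results of these data known.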

Additional observations from a re-analysis of the deposited data

Results flagged for a closer look

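In the 24 groups of 4 samples examined (ratio, wild-type level and knockout level of each of the 8 measured Sprr genes), 1 sample lay far from the other 3. It was the wild-type level of Sprr2e in pair 4, at 7.77 (log2, 0 at the channel median), against 7.04 to 7.13 in the other pairs. Chance flags about 1 in 20 such groups. The wild-type spot of pair 1, at 7.13, was saturated, so that its level is a lower bound and the distance of pair 4 from it is not known.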

How the results depend on the processing

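Over all alternatives, including each pair left out in turn, 69 values of Sprr mean ratios moved by less than the SD between pairs and 3 by more. Means near 0 changed sign: Sprr2a (-0.03) was at 0.02 over all probes and at -0.33 to 0.25 with 1 pair left out, and Sprr2d (-0.0046) at 0.0085 with no background correction, 0.02 with median centring and -0.06 to 0.08 with 1 pair left out. With Agilent processed signals, centred on the median, the means moved to -0.34 for Sprr2d, -0.69 for Sprr2g and 3.33 for Sprr2h, and at the 75th percentile of processed signals the differences of levels were -0.40, -0.75 and 3.27. Leaving out 1 pair gave means from -1.05 to -0.73 for Sprr2k, -0.72 to -0.45 for Sprr2e, -0.53 to -0.26 for Sprr2b, -0.55 to -0.39 for Sprr2g, 0.27 to 0.62 for Sprr1a and 0.54 to 0.76 for Sprr2h. The mean over pairs without a saturated channel, chosen after seeing the data, was -0.53 for Sprr2e and -0.16 for Sprr2b. The count of genes past the design text's rule was 293 higher and 269 lower with processed signals and 45 and 293 with median centring in place of loess, and leaving out 1 pair gave 93 to 388 and 84 to 495. limma called 4 genes with processed signals, 3 with no dye term, and 1 each with no background correction, with median centring and with the strict filter, and 0 Sprr genes in each. Sprr2h and Sprr2d did not pass the strict filter on dim probes. The cause of these shifts was not tested. No paired analysis was possible because the numbers shared in the labels join methylation with expression arrays, which were not compared. The ratio of each expression array is itself a value within 1 pair. The alternatives for methylation near the Sprr genes were not run, since no probe was tied to a Sprr gene. Dim signals limit Sprr2d and Sprr2h, and saturation limits Sprr2a and Sprr2b.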
